A study of Rattus norvegicus with 6 samples.

Results

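The genes described are 52 genes of DNA replication and of its E2F control, out of 17273 genes with a row in the deposited table. They were chosen by symbol and not by any measured value, though earlier results of these data were known. E2f1 was not analysed here, and the other 51 had a row and passed the filter on low counts (13747 genes tested). They were measured by RNA sequencing in cultured cells labelled as nucleus pulposus cells, from the gelatinous core of the intervertebral disc, of wild-type male Sprague Dawley rats. Lactate libraries (n = 3) came from cells given 10 mM lactate for 8 h, and control libraries (n = 3) from cells given no treatment. All cells grew in DMEM with fetal bovine serum. Whether a salt of lactate or lactic acid was added is not stated. Nothing in the labels ties a library to its own culture or animal, so the p-values speak of the variation from library to library, which may be technical. The labels give no age or passage.

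DNA replication is prepared before S phase, when the origin recognition complex, Cdc6 and Cdt1 load the MCM2-7 helicase onto origins, and it starts when Cdc45 and the GINS complex turn that helicase on. Polymerases, a sliding clamp, single-strand binding proteins and a supply of nucleotides then carry the copying forward. Chromatin assembly factors restore histones, and Dnmt1 with Uhrf1 restores DNA methylation. E2F transcription factors, held back by the retinoblastoma protein until cyclin E and its kinase act, switch on most of these genes together in cycling cells, and the family members E2f7 and E2f8 repress the same genes. 

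Promoter windows of 300 bases (250 before and 50 after the start site, RefSeq, rat build GRCr8) were found for 42 of the 52 genes. The E2F motif was searched on both strands as the letters TTTCCCGC, TTTCGCGC, TTTGCCGC and TTTGGCGC. It stood in 19 of the 42 windows (45.2%), against 535 of the 18999 windows of protein-coding genes (2.82%). The CCAAT box (CCAAT) stood in 27 of the 42 (64.3%), against 38.4% of the 18999 windows. The cell cycle element CHR (TTTGAA or TTCGAA) stood in 7 of the 42 (16.7%), against 18.5%. These shares are descriptions of letters, not of sites in use, and base composition was not matched. Mcm4, Cdc6, Gins4, E2f8 and Ccne2 were lower after lactate but had no window, while every gene that was higher had one. Of the 19 windows of genes that were lower after lactate 9 (47.4%) held the E2F letters, of the 7 of genes that were higher 5 (71.4%), and of the 16 of genes not called 5 (31.2%). Genes that moved in opposite directions with TMM factors therefore both carried the letters. The 5 windows below, chosen after the values were seen, show this for 4 subunits of the MCM helicase and for Cdt1. Mcm5 (chr19:13488563-13488862, + strand), Mcm2 (chr4:122918045-122918344, − strand) and Cdt1 (chr19:67528999-67529298, + strand) were higher, and Mcm7 (chr12:22163129-22163428, − strand) and Mcm6 (chr13:42404303-42404602, − strand) lower, with TMM factors, though Mcm5 and Mcm2 lay below control with library totals. Each is written 5′ to 3′ on the strand of the gene, with E2F matches in capitals, where a longer run of capitals holds overlapping matches on both strands.
Mcm5: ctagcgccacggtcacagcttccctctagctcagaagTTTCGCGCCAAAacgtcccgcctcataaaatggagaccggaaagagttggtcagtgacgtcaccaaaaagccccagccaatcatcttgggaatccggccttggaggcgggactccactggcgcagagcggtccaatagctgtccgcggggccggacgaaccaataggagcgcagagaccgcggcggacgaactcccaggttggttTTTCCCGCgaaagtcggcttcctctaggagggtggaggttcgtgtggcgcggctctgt
Mcm2: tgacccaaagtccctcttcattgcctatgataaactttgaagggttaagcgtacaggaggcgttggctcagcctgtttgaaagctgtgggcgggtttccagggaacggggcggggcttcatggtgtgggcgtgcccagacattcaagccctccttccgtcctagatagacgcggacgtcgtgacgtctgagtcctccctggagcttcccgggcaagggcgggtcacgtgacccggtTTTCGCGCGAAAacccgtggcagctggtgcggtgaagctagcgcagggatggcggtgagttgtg
Cdt1: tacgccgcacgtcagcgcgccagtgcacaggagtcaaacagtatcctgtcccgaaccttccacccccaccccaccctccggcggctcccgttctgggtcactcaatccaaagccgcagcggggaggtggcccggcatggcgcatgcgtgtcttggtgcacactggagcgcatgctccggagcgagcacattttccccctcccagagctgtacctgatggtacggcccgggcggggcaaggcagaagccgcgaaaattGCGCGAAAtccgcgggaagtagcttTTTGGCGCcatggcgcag
Mcm7: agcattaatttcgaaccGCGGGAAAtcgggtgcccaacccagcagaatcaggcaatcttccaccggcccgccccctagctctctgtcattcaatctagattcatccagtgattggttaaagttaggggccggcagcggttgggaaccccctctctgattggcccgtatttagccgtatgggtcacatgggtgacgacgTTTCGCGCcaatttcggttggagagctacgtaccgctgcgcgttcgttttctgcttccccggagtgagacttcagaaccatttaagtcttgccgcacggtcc
Mcm6: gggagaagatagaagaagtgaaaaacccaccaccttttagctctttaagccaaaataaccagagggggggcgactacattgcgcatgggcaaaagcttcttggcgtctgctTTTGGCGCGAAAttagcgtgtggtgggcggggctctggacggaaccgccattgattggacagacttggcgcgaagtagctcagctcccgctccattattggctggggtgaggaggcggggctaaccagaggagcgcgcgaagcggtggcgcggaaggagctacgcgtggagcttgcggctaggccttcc
In Mcm2 the 2 matches overlap 14 and 10 bases before the start site, in Mcm5 a match begins 8 bases before it, and in Mcm7 the nearer match begins 52 bases before it. Cdt1 holds its matches 8 and 33 bases after the start, and in Mcm6 the overlapping matches begin 139 and 135 bases before it.

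Libraries held 30291357 to 35512356 counts after lactate and 33584741 to 38989574 in control. An error after a log2 fold change is its SE. Levels are given as CPM, read counts scaled to the size of the library, and as FPKM, which also divides by transcript length, where genes are compared with one another. A gene was called when its Benjamini-Hochberg adjusted p over all tested genes was under 0.05. TMM factors, which set the bulk of genes equal, were 0.702 to 0.806 in lactate and 1.32 to 1.36 in control libraries. With them the median log2 fold change over all tested genes was −0.10, and with library totals alone it was −0.96. "Rose" and "fell" below refer to TMM factors, that is, to the bulk of genes. Values with library totals stand beside every replication or other pathway gene that rose. Of the markers of the labelled cell type, aggrecan (Acan) was abundant at 2288 ± 183 CPM in lactate libraries and 2391 ± 159 CPM in control libraries (SD, n = 3 each), while the notochord genes Tbxt and Krt19 had 0 counts in every lactate library and at most 4 in a control library. Summed levels of 12 nucleus pulposus and notochord markers, mostly Acan, were 2503 to 2845 CPM in lactate and 2584 to 2889 CPM in control libraries. Within that sum Cd24 (2.32), Sox9 (1.45) and Ca12 (1.58) were called higher and Foxa2 (−1.97) and Pax1 (−0.88) lower, as log2 fold changes with TMM factors, and Col2a1 averaged 0.746 CPM in lactate and 0.279 CPM in control libraries. Those of 5 annulus fibrosus and fibroblast markers were 100800 to 145300 CPM in lactate against 29560 to 35410 CPM in control, nearly all of it Col1a1 (1.97). Of the other 4, Thy1 (1.24) was called higher, Mkx (−2.36) and Pdgfra (−1.42) were called lower, and Scx (0.098) was not called. The 5 smooth muscle and pericyte markers summed to 852 to 1091 CPM in lactate and 862 to 1087 CPM in control libraries, mostly Acta2 (0.028, not called), while Des (1.99) and Mcam (1.79) were called higher and Myh11 (−1.17) and Pdgfrb (−1.27) lower. The 2 endothelial markers measured summed to 0.0698 to 0.235 CPM in lactate and 0.116 to 0.197 CPM in control libraries (Kdr had 0 counts in control). Those of 4 macrophage and blood cell markers were 4.09 to 5.39 CPM in lactate against 9.60 to 10.7 CPM in control (Adgre1 had 0 counts in lactate). Of these 4, Cd14 (−1.72) was called lower and Cd68 (1.48) higher, and Csf1r and Adgre1 were not tested. With library totals Sox9 (0.56), Ca12 (0.75) and Cd68 (0.64) lost the higher call. Cd24, Col1a1, Thy1, Des and Mcam kept it, Thy1 at only 0.37. Markers not called with TMM factors were mostly called lower with library totals. These were Acan (−0.92), Krt8 (−1.21), Ca3 (−1.09), Foxf1 (−0.76), Acta2 (−0.84) and Scx (−0.78), beside the −0.96 of the median gene on that scale. Col2a1 (0.58) was again not called. In FPKM, Acan averaged 248 in lactate and 471 in control libraries. The part of these marker differences in the results below was not tested.

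More of the replication genes fell than rose after lactate, and with TMM factors the direction differed within single complexes. With edgeR's quasi-likelihood test and TMM factors 24 of 51 (47.1%) were lower, against 34.6% of all tested genes, and 7 of 51 (13.7%) were higher, against 31.4%. At least 2-fold changes were found in 14 that fell and 2 that rose, where 22.5% and 18.1% of all tested genes passed. The median log2 fold change of the 51 was −0.45, against −0.10 over all tested genes. With library totals 43 were lower (61.7% of all tested genes) and 0 higher (12.6%), with a median of −1.29 against −0.96. With log2(FPKM + 1) and limma 44 were lower (63.7% of all tested genes) and 0 higher (13%). Replication genes minus all genes, the medians differed by −0.35 on the TMM scale and −0.34 on totals, and −0.54 with log2(FPKM + 1). In bulk RNA, fewer cells in S phase and less RNA of these genes per cell cannot be told apart.

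**Figure D1:**
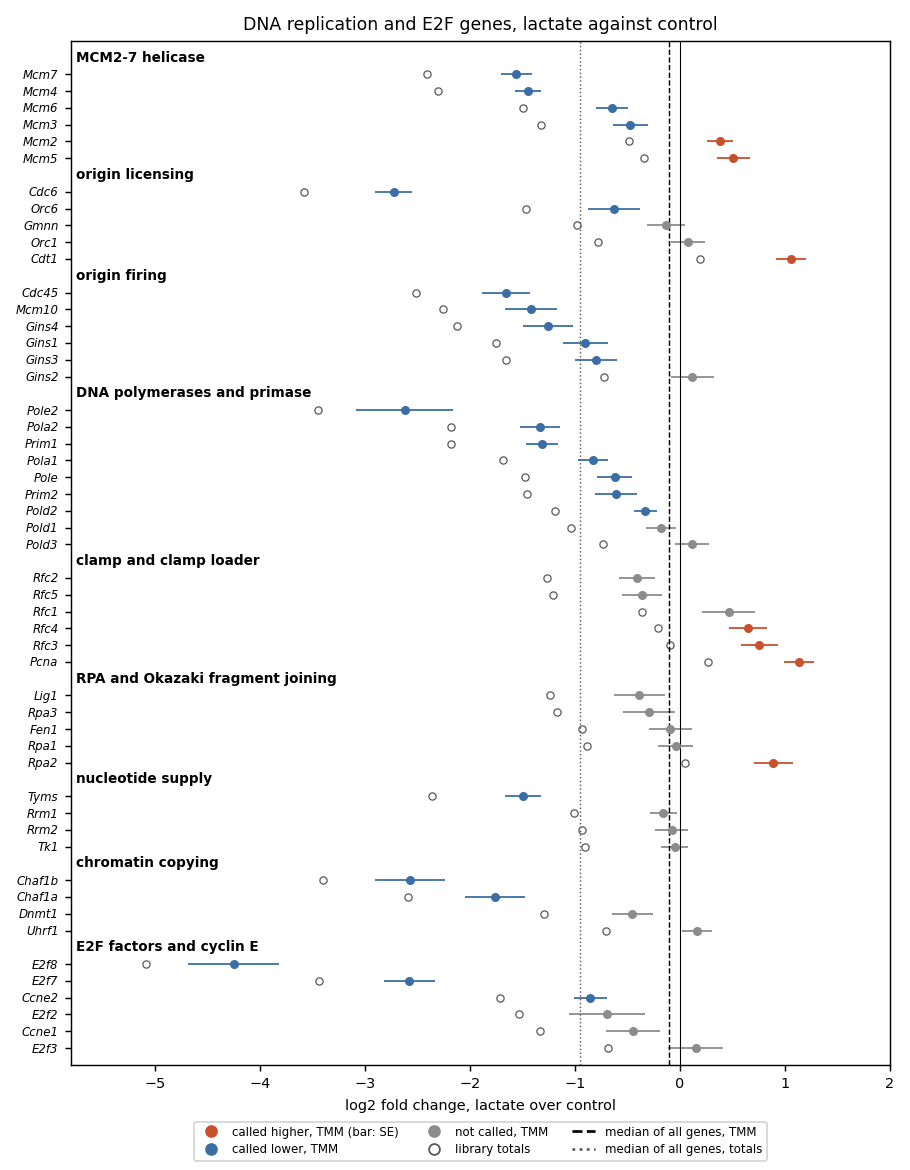
Log2 fold change of lactate over control for the 51 genes, by role. Filled points with SE bars use TMM factors (orange higher, blue lower, grey not called) and open points use library totals, where 0 genes were called higher; E2f8 lies lowest at −4.25 and Pcna highest at 1.13 with TMM factors. The dashed and dotted lines are the medians of all tested genes with TMM factors and library totals.

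The genes took 0.115%, 0.0998% and 0.141% of all counts in lactate libraries 1, 2 and 3, against 0.248%, 0.203% and 0.274% in control libraries. On library totals the groups therefore did not overlap, and gene by gene 43 of 51 (84.3%) lay below in all lactate libraries and 0 above, against 64.4% and 14.2% of all tested genes. With TMM factors their summed level was 1594, 1420 and 1747 CPM in lactate and 1818, 1532 and 2022 CPM in control libraries, and the groups overlapped. Lactate library 3 had the highest share among the lactate libraries and control library 2 the lowest among the controls. Gene by gene with TMM factors, all lactate libraries lay below all control libraries in 25 of 51 genes (49%), against 38.4% of all tested genes, and above them in 7 (13.7%), against 33.7%. A scale that uses only the 51 genes, each gene's share of their summed counts, was added after seeing the data and does not depend on the scaling between libraries. On it lactate libraries were all below in 24 genes, all above in 10 and overlapping in 17. Shares of one sum are tied, so a fall in some genes raises the shares of others. No count over all tested genes was made on this scale, so these counts are a description only.

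The MCM2-7 helicase, a ring of 6 different subunits that unwinds DNA, showed the split within one complex. Mcm7 had 25.7, 21.8 and 27.0 CPM in lactate libraries, against 75.2, 60.4 and 83.8 CPM in control libraries, and Mcm4 had 33.5, 34.3 and 35.3 CPM in lactate libraries, against 91.3, 82.2 and 107 CPM in control libraries. The groups lay far apart for both, with log2 fold changes of −1.56 ± 0.15 (SE; edgeR adjusted p = 3.17e-05) and −1.45 ± 0.12 (SE; edgeR adjusted p = 1.56e-05). Mcm6 fell by less, with 54.0, 45.6 and 62.0 CPM in lactate libraries, against 85.9, 70.3 and 96.7 CPM in control libraries (−0.65 ± 0.16, edgeR adjusted p = 0.00571), and so did Mcm3 (−0.47 ± 0.17, edgeR adjusted p = 0.0339). Mcm5 had 109, 90.1 and 132 CPM in lactate libraries, against 80.7, 65.4 and 86.3 CPM in control libraries. It rose with TMM factors (0.51 ± 0.16, edgeR adjusted p = 0.0208), but its sign turned with library totals, where it was not called (−0.34, edgeR adjusted p = 0.156), and it was at 0.077 and not called with the trend on expression level removed (edgeR adjusted p = 0.69). Mcm2 had 106, 100.4 and 92.2 CPM in lactate libraries, against 76.5, 65.8 and 86.8 CPM in control libraries. It also rose with TMM factors (0.38 ± 0.12, edgeR adjusted p = 0.0237), but was called lower with library totals (−0.48, edgeR adjusted p = 0.00903) and was at −0.031, not called, without that trend. For both genes every lactate library lay above every control library on the TMM scale. The calls of Mcm2, Mcm3 and Mcm5 were borderline. Mcm2 was not called without lactate library 1 (adjusted p = 0.087) or 2 (0.0579) or control library 1 (0.0593) or 2 (0.0921), Mcm3 without lactate library 1 (0.0527) or 2 (0.0927) or control library 1 (0.0913) or 3 (0.108), and Mcm5 without control library 2 (0.0785), all with edgeR.

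The unequal change within the ring does not depend on the scaling, because it can be read as a share of the summed MCM2-7 FPKM, a length-corrected level, within each library. Mcm2 and Mcm5 together made up 55.6%, 57.0% and 54.8% of it in lactate libraries, against 31.7%, 31.6% and 31.3% in control libraries. Mcm4 and Mcm7 together made up 16.6%, 17.9% and 16.4% in lactate libraries, against 36.5%, 37.1% and 37.4% in control libraries. In control libraries the 6 subunits were near one another, between 12.4% (Mcm3) and 19.2% (Mcm7). After lactate they ranged from 8.07% (Mcm4) to 33.2% (Mcm5). In log2 of counts over the MCM2-7 sum, the mean difference of lactate minus control was −1.21 for Mcm7, −1.10 for Mcm4, −0.31 for Mcm6, −0.15 for Mcm3, 0.73 for Mcm2 and 0.84 for Mcm5. The groups did not overlap for 5 of these, and did for Mcm3. An exact two-sided permutation test of 3 libraries against 3 cannot go below p = 0.1, which the 5 reached (Mcm3, p = 0.2), and over the 12 ratios computed the Benjamini-Hochberg value of that p was 0.12.

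**Figure D2:**
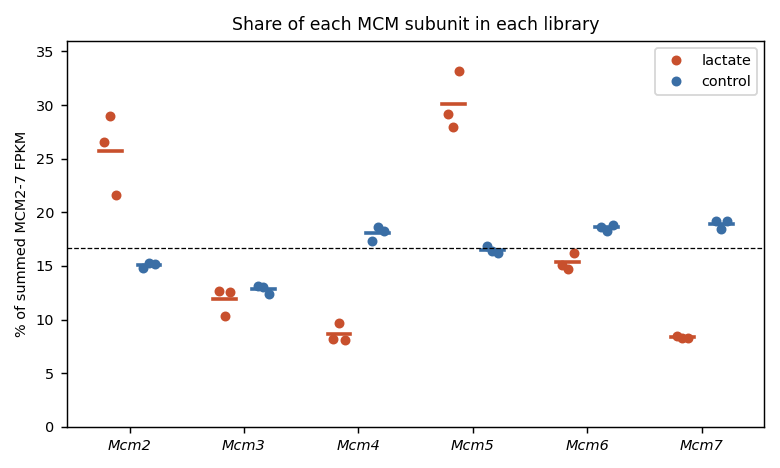
Share of each MCM subunit in the summed MCM2-7 FPKM of each library (points, 3 lactate and 3 control libraries; lines, means; dashed, an equal share). Mcm2 and Mcm5 lie higher in all 3 lactate libraries than in any control library, and Mcm4, Mcm6 and Mcm7 lower.

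On the TMM scale, the factors that load the helicase moved in opposite directions. Cdc6, the ATPase that works with the origin recognition complex, had 2.95, 2.35 and 2.58 CPM in lactate libraries, against 17.6, 15.3 and 19.4 CPM in control libraries, and it fell by 2.73 ± 0.17 on the log2 scale (SE; edgeR adjusted p = 4.5e-06). The log2 fold change of Cdc6 was −3.58 with library totals. Cdt1, its partner in loading, had 38.7, 37.4 and 30.8 CPM in lactate libraries, against 17.2, 15.1 and 18.9 CPM in control libraries, and the groups did not overlap. It rose with TMM factors (1.06 ± 0.14, edgeR adjusted p = 0.000206) and lost the call with library totals (0.20, edgeR adjusted p = 0.236). Geminin (Gmnn), the inhibitor of Cdt1, was not called, with 8.07, 9.35 and 11.0 CPM in lactate libraries, against 10.7, 8.83 and 11.7 CPM in control libraries (−0.13 ± 0.18, edgeR adjusted p = 0.541). Orc6, a subunit of the origin recognition complex, had 5.30, 3.95 and 7.37 CPM in lactate libraries, against 8.66, 7.41 and 9.71 CPM in control libraries, and was called lower (−0.63 ± 0.24, edgeR adjusted p = 0.0482). The groups did not overlap, though the highest lactate and the lowest control library nearly met. Orc6 lost the call without each of the libraries other than lactate library 3, with adjusted p from 0.0577 to 0.151, and with RLE factors and with the level trend removed. Orc1, the subunit of that complex that varies most through the cycle, was at 0.079 ± 0.16 (SE; edgeR adjusted p = 0.681).

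Ratios within a library do not depend on the scaling either. Log2 counts of Cdt1 over Cdc6 were 3.72, 3.99 and 3.58 in lactate libraries, against −0.033, −0.020 and −0.035 in control libraries. The 2 genes thus had nearly equal counts in each control library and far apart ones after lactate. Those of Cdt1 over Gmnn were 2.26, 2.00 and 1.48 in lactate libraries, against 0.682, 0.773 and 0.695 in control libraries. Both pairs were formed after the values were seen, so they are given as a description with no test.

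Of 6 origin firing genes 5 (83.3%) fell and 0 rose, against 34.6% and 31.4% of all tested genes. Cdc45, which binds the helicase to activate it, had 4.12, 3.38 and 4.05 CPM in lactate libraries, against 11.9, 9.02 and 15.6 CPM in control libraries (−1.66 ± 0.23, edgeR adjusted p = 0.000262). Mcm10, which takes part in helicase activation, had 6.12, 4.93 and 9.57 CPM in lactate libraries, against 18.1, 15.8 and 21.6 CPM in control libraries (−1.42 ± 0.25, edgeR adjusted p = 0.00104). Of the 4 GINS subunits, Gins4 had 6.30, 4.00 and 3.81 CPM in lactate libraries, against 12.4, 9.35 and 11.9 CPM in control libraries (−1.26 ± 0.23, edgeR adjusted p = 0.00146). The groups did not overlap for any of these 3. Gins1 (−0.90 ± 0.21, edgeR adjusted p = 0.00531) and Gins3 (−0.80 ± 0.20, edgeR adjusted p = 0.0068) fell as well, both without their call once the trend on level was removed (−0.42 and −0.33). Gins2 was not called (0.12 ± 0.20, edgeR adjusted p = 0.626). Cdc45 and Mcm10 kept their calls under all 18 alternatives, as did Gins4.

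Of 9 polymerase and primase genes 7 (77.8%) fell and 0 rose, against 34.6% and 31.4% of all tested genes. Pole2, the second subunit of the leading-strand polymerase epsilon, had 0.363, 0.705 and 1.36 CPM in lactate libraries, against 3.83, 4.30 and 7.21 CPM in control libraries, which is −2.62 ± 0.46 (SE; edgeR adjusted p = 0.00108) on the log2 scale. Its lactate counts were only 8, 15 and 39, which limits the precision of that value. Prim1, the catalytic primase subunit, had 10.6, 11.3 and 8.49 CPM in lactate libraries, against 26.1, 22.8 and 26.5 CPM in control libraries (−1.31 ± 0.15, edgeR adjusted p = 9.7e-05), and Pola2, the regulatory subunit of polymerase alpha, had 6.57, 4.70 and 6.36 CPM in lactate libraries, against 13.3, 13.6 and 17.4 CPM in control libraries (−1.33 ± 0.19, edgeR adjusted p = 0.000315). Neither group of libraries overlapped the other for these 3 genes. Pola1, which carries the catalytic site of polymerase alpha, had 19.1, 15.1 and 17.1 CPM in lactate libraries, against 28.5, 28.2 and 34.2 CPM in control libraries (−0.83 ± 0.14, edgeR adjusted p = 0.000875). Prim2, the regulatory primase subunit, was at −0.61 ± 0.20 (edgeR adjusted p = 0.0246) and Pole, the catalytic subunit of epsilon, at −0.62 ± 0.17 (edgeR adjusted p = 0.0102). Once the length trend was taken out, Pole was no longer called (−0.17). Of polymerase delta, the lagging-strand polymerase, Pold2 was lower by less (−0.33 ± 0.11, edgeR adjusted p = 0.028), while Pold1 (−0.18 ± 0.14) and Pold3 (0.11 ± 0.16) were not called (edgeR adjusted p = 0.296 and adjusted p = 0.561). Prim2 and Pold2 lost their calls without lactate library 1 (adjusted p = 0.0563 and 0.0688), lactate library 2 (0.0663 and 0.0813) or control library 3 (0.108 and 0.123), all with edgeR.

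Of 6 genes of the sliding clamp and its loader 0 fell and 3 (50%) rose with TMM factors, against 34.6% and 31.4% of all tested genes. With library totals 0 of these 3 was called, and Rfc2 and Rfc5 were called lower (−1.26 and −1.21, edgeR adjusted p = 0.000492 and 0.00154). Pcna, the ring that tethers polymerases to DNA, had 159.9, 153 and 145 CPM in lactate libraries, against 81.7, 55.7 and 71.5 CPM in control libraries. All lactate libraries lay above all control libraries. Pcna rose with TMM factors (1.13 ± 0.14, edgeR adjusted p = 0.000151) and was at 0.27 with library totals (edgeR adjusted p = 0.138). Per length, Pcna had 94.5 ± 4.28 FPKM in lactate libraries and 78.9 ± 15.9 FPKM in control libraries (SD, n = 3 each). Of the 5 subunits of replication factor C, which opens the clamp, Rfc3 had 26.0, 23.4 and 31.4 CPM in lactate libraries, against 17.3, 12.4 and 18.0 CPM in control libraries, and rose with TMM factors (0.76 ± 0.18, edgeR adjusted p = 0.00542) but not with library totals (−0.091). Rfc4 had 24.2, 17.5 and 22.2 CPM in lactate libraries, against 15.8, 11.0 and 13.9 CPM in control libraries, and rose with TMM factors (0.65 ± 0.18, edgeR adjusted p = 0.0123) but not with library totals (−0.21), and it lost the call with the length trend removed (0.35, edgeR adjusted p = 0.123). Rfc2 (−0.41 ± 0.17, edgeR adjusted p = 0.0635), Rfc5 (−0.36 ± 0.19, edgeR adjusted p = 0.12) and Rfc1 (0.46 ± 0.25, edgeR adjusted p = 0.13) were not called. Rfc1 was spread widely after lactate, with 47.2, 35.1 and 77.1 CPM in lactate libraries, against 36.2, 39.1 and 40.3 CPM in control libraries, and was called higher without lactate library 2 (0.69, edgeR adjusted p = 0.0149). Rfc2 and Rfc5 were also called lower with upper-quartile factors, with both FPKM settings and with the length trend removed (−0.61 and −0.58). Rfc5 was called lower without lactate library 3 (−0.50, edgeR adjusted p = 0.028) and Rfc2 without control library 2 (−0.52, edgeR adjusted p = 0.0366).

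Among 5 genes of single-strand binding proteins and Okazaki fragment enzymes 0 fell and 1 (20%) rose with TMM factors, against 34.6% and 31.4% of all tested genes. Rpa2, the middle subunit of the trimer RPA, had 38.5, 39.4 and 59.0 CPM in lactate libraries, against 26.4, 21.0 and 26.5 CPM in control libraries. Lactate library 3 was the highest of the 6, and the groups did not overlap. Rpa2 rose with TMM factors (0.89 ± 0.19, edgeR adjusted p = 0.00274) and lost the call with library totals (0.047, edgeR adjusted p = 0.863). Its partners Rpa1, the large subunit (−0.041 ± 0.17, edgeR adjusted p = 0.844), and Rpa3, the small one (−0.29 ± 0.25, edgeR adjusted p = 0.32), were not called. Neither were Fen1, the flap nuclease (−0.09 ± 0.21, edgeR adjusted p = 0.72), and Lig1, the ligase that seals Okazaki fragments (−0.38 ± 0.24, edgeR adjusted p = 0.196), although Lig1 was called lower without control library 2 (−0.60, edgeR adjusted p = 0.0445). Rpa3 was at −1.18 and called lower (edgeR adjusted p = 0.00205) with the length trend removed.

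Of the 4 nucleotide supply genes 1 (25%) fell, no more than the 34.6% of all tested genes, and 0 rose. In control libraries Rrm2 had the highest FPKM of the 51 genes, with 56.0 ± 11.8 FPKM in lactate libraries and 108 ± 21.3 FPKM in control libraries (SD, n = 3 each). Rrm2, the small subunit of ribonucleotide reductase that is made in S phase, had 90.4, 78.9 and 103 CPM in lactate libraries, against 104, 75.7 and 109 CPM in control libraries. The groups overlapped, and the log2 fold change was −0.079 ± 0.16 (SE; edgeR adjusted p = 0.682). Rrm1, the large subunit, was at −0.16 ± 0.13 (SE; edgeR adjusted p = 0.313) and Tk1, the cytosolic thymidine kinase, at −0.05 ± 0.13 (SE; edgeR adjusted p = 0.75). Tyms, which makes thymidylate and is the target of fluorouracil, stood apart with 8.56, 6.72 and 5.97 CPM in lactate libraries, against 20.5, 18.4 and 21.0 CPM in control libraries, and it fell by 1.50 ± 0.17 on the log2 scale (SE; edgeR adjusted p = 8.03e-05). With library totals Rrm1, Rrm2 and Tk1 were lower as well, at −1.01, −0.93 and −0.91, values close to the −0.96 of the median gene on that scale. With the level trend removed they were called lower too, at −0.71, −0.52 and −0.54.

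Of the 4 genes that copy chromatin 2 (50%) fell and 0 rose, against 34.6% and 31.4% of all tested genes. The 2 that encode the histone chaperone CAF-1 fell, and those of DNA methylation were not called. Chaf1b had 1.68, 1.08 and 2.83 CPM in lactate libraries, against 11.1, 9.10 and 13.5 CPM in control libraries, which is −2.57 ± 0.34 (SE; edgeR adjusted p = 0.000184) on the log2 scale, and Chaf1a had 6.43, 5.83 and 12.0 CPM in lactate libraries, against 25.1, 23.3 and 34.4 CPM in control libraries, at −1.76 ± 0.29 (SE; edgeR adjusted p = 0.000684). Lactate library 3 was the highest of the lactate libraries for both, and still below every control library. Dnmt1, the maintenance methyltransferase, was at −0.45 ± 0.19 (SE; edgeR adjusted p = 0.0668), and it was called lower without lactate library 3 (−0.67, edgeR adjusted p = 0.00394) and, among other settings, with DESeq2. Uhrf1, which guides Dnmt1 to newly copied DNA, was at 0.16 ± 0.14 (SE; edgeR adjusted p = 0.344).

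The repressor E2f8 had the most negative log2 fold change of the 51 genes with TMM factors. It had 18, 5 and 27 counts in lactate libraries, against 424, 632 and 826 in control libraries, which is 0.816, 0.235 and 0.943 CPM in lactate libraries, against 9.27, 12.2 and 17.5 CPM in control libraries. Its log2 fold change was −4.25 ± 0.43 (SE; edgeR adjusted p = 4.5e-05), and −5.09 with library totals. E2f7, the other atypical repressor, had 1.18, 1.46 and 1.01 CPM in lactate libraries, against 6.27, 6.97 and 8.48 CPM in control libraries (−2.58 ± 0.24, edgeR adjusted p = 2.92e-05). The activator E2f3 was not called, with 8.47, 5.31 and 11.1 CPM in lactate libraries, against 6.38, 7.94 and 8.18 CPM in control libraries (0.15 ± 0.26, edgeR adjusted p = 0.633), and neither was E2f2 (−0.70 ± 0.36, edgeR adjusted p = 0.122), which was called lower without lactate library 3 (−1.01, edgeR adjusted p = 0.0435). Log2 counts of E2f8 over E2f3 were −3.38, −4.50 and −3.56 in lactate libraries, against 0.538, 0.624 and 1.10 in control libraries. For E2f7 over E2f3 they were −2.85, −1.87 and −3.46 in lactate libraries, against −0.025, −0.188 and 0.051 in control libraries. Both ratios were formed after these genes were seen to differ, so they are given as a description with no test. Of the E-type cyclins, which drive entry into S phase, Ccne2 had 15.2, 12.4 and 15.4 CPM in lactate libraries, against 30.0, 22.1 and 25.7 CPM in control libraries (−0.86 ± 0.16, edgeR adjusted p = 0.00138). Ccne1 had 9.11, 13.2 and 6.04 CPM in lactate libraries, against 13.4, 11.7 and 13.5 CPM in control libraries and was not called (−0.45 ± 0.26, edgeR adjusted p = 0.155), and without lactate library 2 it was called lower (−0.76, edgeR adjusted p = 0.016). The 2 cyclins were not shown to differ from each other: log2 counts of Ccne2 over Ccne1 were 0.737, −0.085 and 1.35 in lactate libraries, against 1.17, 0.921 and 0.931 in control libraries (exact permutation p = 0.5).

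**Figure D3:**
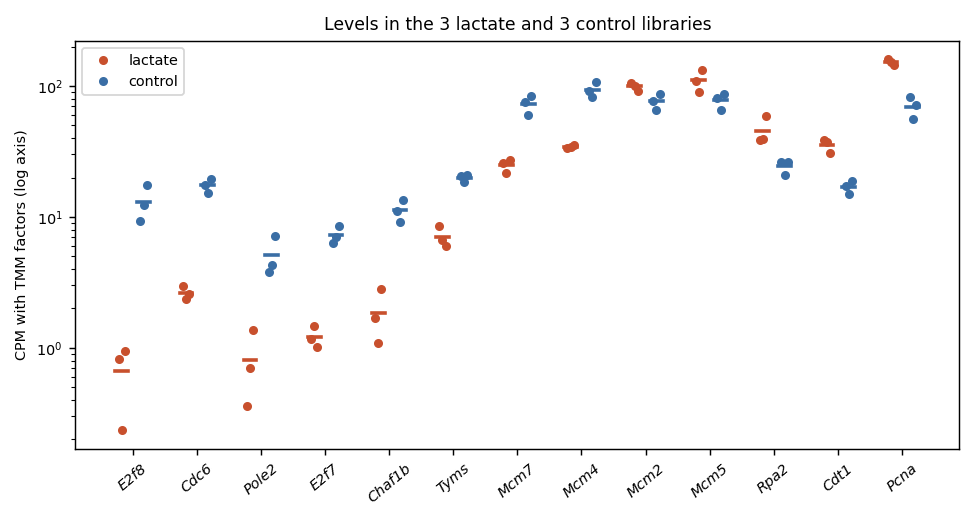
Level in CPM with TMM factors (log axis) of 13 genes in the 3 lactate (orange) and 3 control (blue) libraries, with lines at the means. E2f8, Cdc6, Pole2, E2f7, Chaf1b, Tyms, Mcm7 and Mcm4 are lower in all lactate libraries; Mcm2, Mcm5, Rpa2, Cdt1 and Pcna are higher on this scale, while with library totals 0 of these 5 was called higher and Mcm2 and Mcm5 changed sign.

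Of 62 other genes of the same pathway that were tested, 30 (48.4%) were lower and 6 (9.68%) higher, against 34.6% and 31.4% of all tested genes, and their median was −0.54 on the log2 scale. With library totals 54 (87.1%) were lower and 0 higher, against 61.7% and 12.6%. Among 29 other replication factors 13 (44.8%) fell and 3 (10.3%) rose. Timeless, of the fork protection complex, had 13.0, 10.0 and 10.2 CPM in lactate libraries, against 32.6, 30.1 and 36.6 CPM in control libraries (−1.58 ± 0.15, edgeR adjusted p = 3.17e-05), Wdhd1, which ties the helicase to polymerase alpha, was at −1.40 ± 0.15 (SE; edgeR adjusted p = 5.26e-05), and Orc3 at −1.77 ± 0.19 (SE; edgeR adjusted p = 6.81e-05). Pold4, the small subunit of polymerase delta, rose with TMM factors (1.21 ± 0.15, edgeR adjusted p = 0.000159; 0.34 and not called with library totals), as did Orc2 (0.46 ± 0.11, edgeR adjusted p = 0.0047; −0.40 and called lower with library totals, edgeR adjusted p = 0.0255) and the origin kinase Cdc7 (0.55 ± 0.21, edgeR adjusted p = 0.0405; −0.30 with library totals). Cdc7 lost its call without lactate library 1 (adjusted p = 0.0732) or 3 (0.0884) or control library 1 (0.0767) or 2 (0.129), all with edgeR.

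Of 11 further genes of nucleotide supply and chromatin copying 4 (36.4%) fell, a share near the 34.6% of all tested genes, and 1 (9.09%) rose, against 31.4%. The 1 that rose with TMM factors was Slbp, the histone mRNA binding protein of S phase, with 78.7, 83.0 and 69.3 CPM in lactate libraries, against 41.5, 31.3 and 37.6 CPM in control libraries (1.06 ± 0.13, edgeR adjusted p = 0.000151; 0.20 and not called with library totals). Rrm2b, the subunit of ribonucleotide reductase that p53 can induce, fell, with 0.680, 0.658 and 0.768 CPM in lactate libraries, against 2.54, 2.98 and 2.48 CPM in control libraries (−1.92 ± 0.28, edgeR adjusted p = 0.000354). Log2 counts of Rrm2b over Rrm2 were −7.06, −6.91 and −7.07 in lactate libraries, against −5.35, −4.67 and −5.46 in control libraries (exact permutation p = 0.1). The histone chaperone Asf1a (−1.74 ± 0.29, edgeR adjusted p = 0.000765) and the nucleotide hydrolase Samhd1 (−1.31 ± 0.30, edgeR adjusted p = 0.00432) fell too.

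Of 15 partners and regulators of E2F factors 10 (66.7%) fell and 1 (6.67%) rose, against 34.6% and 31.4% of all tested genes. Rb1, the retinoblastoma protein that restrains E2F activators, had 3.94, 3.34 and 1.40 CPM in lactate libraries, against 9.53, 11.6 and 10.9 CPM in control libraries (−1.90 ± 0.34, edgeR adjusted p = 0.00114). Its relative Rbl2 was at −1.82 ± 0.19 (SE; edgeR adjusted p = 5.11e-05), the repressors E2f6 at −2.01 ± 0.16 (SE; edgeR adjusted p = 1.23e-05) and E2f4 at −1.05 ± 0.15 (SE; edgeR adjusted p = 0.000287), and the mitotic regulator Foxm1 at −1.58 ± 0.20 (SE; edgeR adjusted p = 0.000172). Rbbp4, a histone-binding protein shared by several complexes, rose with TMM factors (0.73 ± 0.14, edgeR adjusted p = 0.00194; −0.12 with library totals). Of 7 S phase kinase and checkpoint genes 3 (42.9%) fell and 1 (14.3%) rose, against 34.6% and 31.4% of all tested genes. Ccna2, the cyclin of S phase and mitosis, was at −1.52 ± 0.12 (SE; edgeR adjusted p = 1.39e-05), Clspn, the checkpoint adaptor claspin, at −1.61 ± 0.23 (SE; edgeR adjusted p = 0.000323) and the kinase Atr at −0.52 ± 0.13 (SE; edgeR adjusted p = 0.00718), whose value without the length trend was 0.027, not called. Cdc25a, the phosphatase that activates the cyclin E kinase, rose with TMM factors, with 40.1, 38.0 and 43.0 CPM in lactate libraries, against 18.5, 16.3 and 21.8 CPM in control libraries (1.10 ± 0.14, edgeR adjusted p = 0.000133; 0.24 and not called with library totals). Chek1 was not analysed here.

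Fold changes in the whole table followed expression level and transcript length, and the replication genes were set against both. Across the 51 genes the log2 fold change was higher at higher levels (Pearson r = 0.497, Spearman rho = 0.497) and lower for longer transcripts (r = −0.121, rho = −0.112). These are descriptions across genes of the same 6 libraries, and over all tested genes r was 0.286 with level and −0.226 with length. Level was the mean over all 6 libraries, so a gene's own fall after lactate also lowers its level. Fold change and level are therefore not independent. When all tested genes were divided into 5 equal bins by level, 39 of the 51 lay below the median of their own bin, and by length 32 of 51. In the bin with the highest level the median log2 fold change was 0.62 over all genes and −0.050 over the 11 replication genes in it. With the trend on level removed 24 were lower and 6 higher, with a median of −0.38, against 30.8% lower and 32.1% higher over all tested genes. These were partly other genes: Orc6, Gins1, Gins3 and Prim2 lost the lower call and Rrm1, Rrm2, Tk1 and Dnmt1 gained it, while Mcm2 and Mcm5 lost the higher call and Orc1 gained it. With the trend on length removed 25 were lower and 7 higher, against 35.7% and 28.9%, where Mcm3 and Pole lost the lower call and Rfc2, Rfc5 and Rpa3 gained it, and Rfc4 lost the higher call and Rfc1 gained it.

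**Figure D4:**
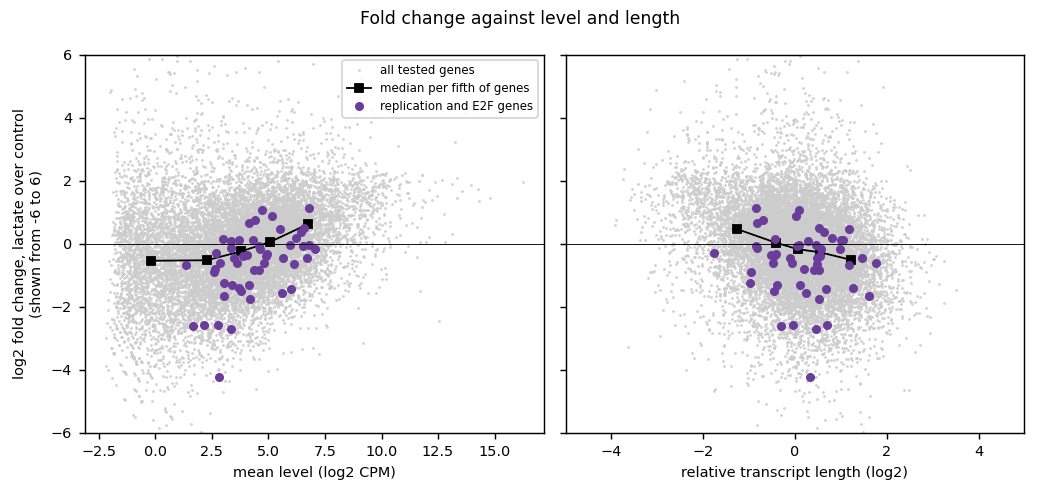
Log2 fold change of lactate over control with TMM factors against mean level (left) and relative transcript length (right), for all tested genes (grey) and the 51 genes (purple), with black squares at the median of each of 5 equal bins of all genes. By level 39 and by length 32 of the 51 lie below the median of their own bin; genes beyond 6 in either direction are not shown.

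Across all 18 alternatives 17 genes were called lower every time: Mcm4, Mcm6, Mcm7, Cdc6, Mcm10, Cdc45, Gins4, Pola1, Pola2, Prim1, Pole2, Tyms, Chaf1a, Chaf1b, E2f7, E2f8 and Ccne2. They come from all the roles except the clamp and its loader and the RPA and Okazaki fragment group. No gene was called higher every time, since library totals and FPKM called 0 higher. In the 15 alternatives other than library totals and the 2 on FPKM, Cdt1, Pcna, Rfc3 and Rpa2 were called higher each time. How many of all tested genes were called each time, lower or higher, was not counted. With TMM factors alone 34.6% of them were lower and 31.4% higher. The 17 and 4 genes are therefore a list, not a trait set apart from other genes. In the authors' deposited table of selected genes, which holds 6359 of 17273 (36.8%), 16 of the 51 appear, 14 as lower and 2 as higher (Cdt1 and Pcna). Genes with less than 2-fold change, such as Pola1 (authors' log2 fold change −0.86) and Rpa2 (0.85), were not selected. The nearest counts are thus those of at least 2-fold changes, not of all calls on adjusted p. The authors' criterion on p differed from the one used here, since they selected Csf1r at a deposited FDR of 0.0812. The authors' deposited table of all genes gives each of the 51 the same sign as the fit with TMM factors.

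**Figure D5:**
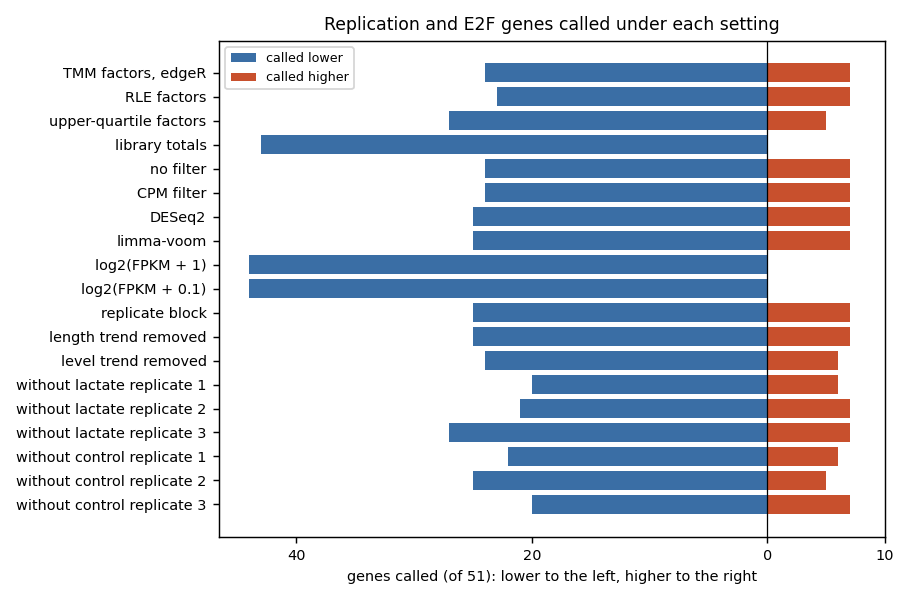
Number of the 51 genes called lower (blue, left) and higher (orange, right) with TMM factors in edgeR and under each of the 18 alternatives. Library totals and both FPKM settings give 43 and 44 genes lower and 0 higher; the other 15 give 20 to 27 lower and 5 to 7 higher.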

How the data were processed

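The 6 libraries were made with a kit for sequencing mRNA, per the labels' protocols. The authors deposited raw read counts per gene and FPKM, together with their own log2 fold changes and p-values (some adjusted), per the file headers. No aligner, counting tool, annotation or strand setting is named (not given in the sources used here). Mouse builds, GRCm38 and mm10, stand in the submitters' processing notes while the tables hold rat symbols, so gene coordinates are not given beyond the RefSeq promoter windows. Near-identical, overlapping or antisense genes may share reads.

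Counts were tested as deposited with edgeR 4.0.16 (quasi-likelihood test) in R 4.3.3, with TMM factors and filterByExpr. The model held the group alone, and p-values were adjusted over 13747 genes (Benjamini-Hochberg, threshold 0.05). CPM use TMM-scaled library sizes. Relative length came from deposited counts over FPKM (51 of 51 genes). Replicate libraries differed by more than sampling noise. Alternatives used limma 3.58.1, DESeq2 1.42.0 and other settings. A count of 0 allows 3 counts, or 0.105 to 0.141 CPM in lactate and 0.0581 to 0.0656 CPM in control libraries, for counting error only. Values in each library are given for up to 3 called genes per role with the smallest p, any called gene that went against its role, and Mcm2, Pcna, Ccne1 and Rrm2; of each further list up to 3 called genes per direction, plus Rb1, E2f4 and Rrm2b, are named. Some further genes were added after their values were seen. Genes and lists were chosen with earlier results of these data known.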

Additional observations from a re-analysis of the deposited data

How the results depend on the processing

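With library totals 43 replication genes were lower and 0 higher (median −1.29), with 54 and 0 of the other pathway genes. With log2(FPKM + 1) these were 44, 0, −1.15, 55 and 1, and with log2(FPKM + 0.1) 44, 0, −1.31, 54 and 1. With the level trend removed 11 other pathway genes were higher, against 6. Leaving out 1 library gave 20 to 27 lower and 5 to 7 higher replication genes, medians of −0.54 to −0.35, 25 to 36 lower and 5 to 8 higher other pathway genes, and 8026 to 9407 called genes in the whole table.

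Signs turned with library totals for Mcm2 (−0.48), Mcm5 (−0.34), Orc1 (−0.78), Gins2 (−0.72), Pold3 (−0.73), Rfc1 (−0.37), Rfc3 (−0.091), Rfc4 (−0.21), Uhrf1 (−0.70), E2f3 (−0.68), Orc2 (−0.40), Cdc7 (−0.30) and Rbbp4 (−0.12). With log2(FPKM + 1) they turned for Mcm2 (−0.46), Mcm5 (−0.36), Orc1 (−0.63), Gins2 (−0.57), Pold3 (−0.63), Rfc1 (−0.43), Rfc3 (−0.10), Rfc4 (−0.20), Rpa2 (−0.0025), Uhrf1 (−0.66), E2f3 (−0.63), Orc2 (−0.38), Cdc7 (−0.24) and Rbbp4 (−0.13). With log2(FPKM + 0.1) they turned for Mcm2 (−0.48), Mcm5 (−0.37), Orc1 (−0.77), Gins2 (−0.75), Pold3 (−0.76), Rfc1 (−0.48), Rfc3 (−0.11), Rfc4 (−0.22), Rpa2 (−0.0046), Uhrf1 (−0.69), E2f3 (−0.77), Orc2 (−0.41), Cdc7 (−0.30) and Rbbp4 (−0.14). Upper-quartile factors turned Orc1 (−0.078), Gins2 (−0.043), Pold3 (−0.049) and E2f3 (−0.013), and took the calls of Mcm2 and Mcm5. Rpa1 turned with RLE factors (9e-04) and DESeq2 (0.0011). Removing the length trend turned Pold1 (0.045), Rpa1 (0.030), E2f3 (−0.039) and Atr (0.027), and removing the level trend turned Mcm2 (−0.031), Gmnn (0.21), Rpa3 (0.17) and Uhrf1 (−0.20). Leaving out 1 library turned genes that were not called, with ranges of −0.024 to 0.17 (Orc1), −0.10 to 0.24 (Gins2), −0.037 to 0.23 (Pold3), −0.16 to 0.11 (Rpa1), −0.31 to 0.045 (Fen1), −0.23 to 0.017 (Rrm2), −0.17 to 0.035 (Tk1) and −0.094 to 0.39 (E2f3). The cause of these changes was not tested.

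Libraries with the same replicate number did not deviate together (r = 0.008, 0.038 and 0.084), and not every library correlated best with its own number. A fit with the replicate number as a block gave 25 lower and 7 higher replication genes. The planned ratios with E2f1 were not run. Genes with few counts, such as E2f8 and Pole2 after lactate, are limited by depth.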
